A study of Homo sapiens with 14 samples.

Results

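The collagen genes are the 44 protein-coding genes whose symbols have the form COL, a type number, A and a chain number. All 44 had at least 1 transcript among the 22410 genes with a row in the deposited tables, 78 transcripts in all, and 28 of them had a single transcript. For each gene the transcript with the highest mean abundance over the 14 libraries was used. The genes were gathered by name, but the set was chosen by the measured level of COL6A3, which had been seen to stand out in SA1Q+gRNA replicate 1 and ctrl replicate 1. Its levels are therefore given as a description with no test. Enough counts for a test were present for 42 of the 44 genes, against 16418 of all genes, and the tests below concern the 41 other than COL6A3.

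Polyadenylated RNA was sequenced from 293 Flip-In T-REx cells, in 14 libraries. The cells derive from human embryonic kidney and accept a transgene at a single integration site. The libraries form 7 groups of 2, and the design text speaks of 2 biologically independent experiments made to find off-target RNA editing. All groups share the parental line. SA1Q+gRNA and SA1Q cells carried a SNAP-ADAR1Q gene with and without a guide RNA, and SA2Q+gRNA and SA2Q cells carried a SNAP-ADAR2Q gene with and without one. SA1+gRNA and SA2+gRNA cells carried SNAP-ADAR1 and SNAP-ADAR2 genes and had a guide RNA, and ctrl cells carried an empty vector and had none. A SNAP-ADAR joins a self-labelling tag, which binds a chemically modified guide, to the deaminase domain of an RNA-editing ADAR enzyme, and the letter Q marks a glutamine that replaces a glutamate there. The target of the guide, any induction of the transgene and whether a line is 1 clone are left unsaid by the sources used here.

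Collagens are proteins of the extracellular matrix built from chains wound into a triple helix, and each gene encodes a chain. Fibrillar collagens form the fibres of bone, skin and cartilage, type IV collagens form the sheet of basement membranes, type VI collagens form beaded microfibrils, and smaller families attach to fibres or span the cell membrane. Chains are hydroxylated and folded in the endoplasmic reticulum before export, and cells bind collagen through integrins and discoidin receptors.

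The 6 type IV genes lie in 3 head-to-head pairs on opposite strands, so that the DNA between the members of a pair holds the start region of both. These intervals are shown because the type IV pairs carried much of the variation described below. They are from RefSeq (GRCh38.p14, plus strand), written 5′ to 3′ in lower case, with every CCAAT, every GGGCGG (the GC box bound by SP1) and their reverse complements ATTGG and CCGCCC in capitals. The first lies at chr13:110307158-110307283, the second at chr2:227164489-227164623 and the third at chrX:108439588-108439837.
COL4A1 to COL4A2: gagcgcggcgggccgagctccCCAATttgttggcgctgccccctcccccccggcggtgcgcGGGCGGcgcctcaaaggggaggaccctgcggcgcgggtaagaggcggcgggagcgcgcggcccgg
COL4A4 to COL4A3: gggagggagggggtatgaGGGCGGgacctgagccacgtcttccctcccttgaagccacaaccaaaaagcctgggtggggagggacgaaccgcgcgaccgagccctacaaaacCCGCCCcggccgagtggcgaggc
COL4A6 to COL4A5: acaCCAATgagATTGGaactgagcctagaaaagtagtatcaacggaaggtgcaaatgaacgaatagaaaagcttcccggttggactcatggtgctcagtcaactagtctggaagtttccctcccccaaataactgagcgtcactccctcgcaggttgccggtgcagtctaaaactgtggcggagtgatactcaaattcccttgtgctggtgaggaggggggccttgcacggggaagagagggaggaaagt
The first interval is the whole gap of 126 nucleotides, has a GC content of 80.2% and holds 1 CCAAT and 1 GC box. The second is the whole gap of 135 nucleotides, with a GC content of 68.1%, 0 CCAAT and 2 GC boxes. The third is the 250 nucleotides before COL4A5 of a gap of 379, with a GC content of 51.2%, 2 CCAAT motifs and 0 GC boxes. Between the transcripts counted here (hg19) the gaps were 134, 5 and 1413 nucleotides. The start regions of the counted transcripts can therefore lie partly outside the printed DNA. On either strand, CCAAT was found in 21.1%, 22.1% and 32% of 35116 RefSeq promoters over windows of 126, 135 and 250 nucleotides, and the GC box in 34.6%, 35.5% and 42.6%. The median GC content of those promoters was 60.3%, 60% and 58%. The motifs did not overlap each other, and a match is a description of the letters only. The promoter table held 32 of the 44 genes.

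Library totals ran from 43.0 to 130.1 M fragments. SA1+gRNA replicate 2 had the highest total, and its counts were even for 100% of rows, whereas this held for 47.7% to 48.7% of rows elsewhere. On the first principal component of all genes, SA1Q+gRNA replicate 1 lay at -43.9 and ctrl replicate 1 at -39.7, whereas the other 12 libraries lay between 0.3 and 13.7. Levels per library are given as TMM-scaled CPM, counts brought to a common library size, means carry the SD of 2 libraries, and levels are compared between genes only by the authors' FPKM, which allows for transcript length. An adjusted p under 0.05 by edgeR's quasi-likelihood test with Benjamini-Hochberg adjustment over all 16418 genes is called. In bulk RNA of this kind, fewer cells that express a gene and less of its RNA per cell cannot be told apart.

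A small number of collagen genes made up most of the collagen RNA. Mean FPKM over the 14 libraries was at least 10 for 5 genes, from 1 to 10 for 9, from 0.1 to 1 for 15 and below 0.1 for 15. COL4A2 and COL4A1, the chains of the common basement membrane network, averaged 20.4 ± 2.21 and 17.3 ± 2.17 FPKM (SD, n = 14). COL6A1, a chain of microfibrillar type VI collagen, averaged 19.6 ± 2.67 FPKM. COL2A1, the chain of the main cartilage fibril, averaged 15.3 ± 2.45 FPKM, and COL18A1, a basement membrane collagen whose end fragment is endostatin, averaged 13.3 ± 1.24 FPKM. Between neighbours in the order of these 5, the means differed by less than the larger of their SDs. Then came COL6A2 at 8.15 ± 0.829 and COL14A1, a collagen that sits on fibril surfaces, at 6.36 ± 1.29 FPKM.

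The next genes were COL4A5 at 2.85 ± 0.606 FPKM, COL4A6 at 2.68 ± 0.516 FPKM and COL25A1, a membrane-spanning collagen of neurons, at 2.59 ± 0.452 FPKM, 3 means that lay within 1 SD of each other. The 6 type IV genes together held 36.6% of the summed collagen FPKM. The chains that dominate fibroblast matrix were low. COL1A1 averaged 1.04 ± 0.164 FPKM, whereas COL3A1 averaged 0.13 ± 0.0403 and COL1A2, the partner chain of COL1A1 in type I collagen, 0.018 ± 0.0164 FPKM. COL22A1, the lowest of the 44, averaged 0.00588 ± 0.00402 FPKM.

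**Figure D1:**
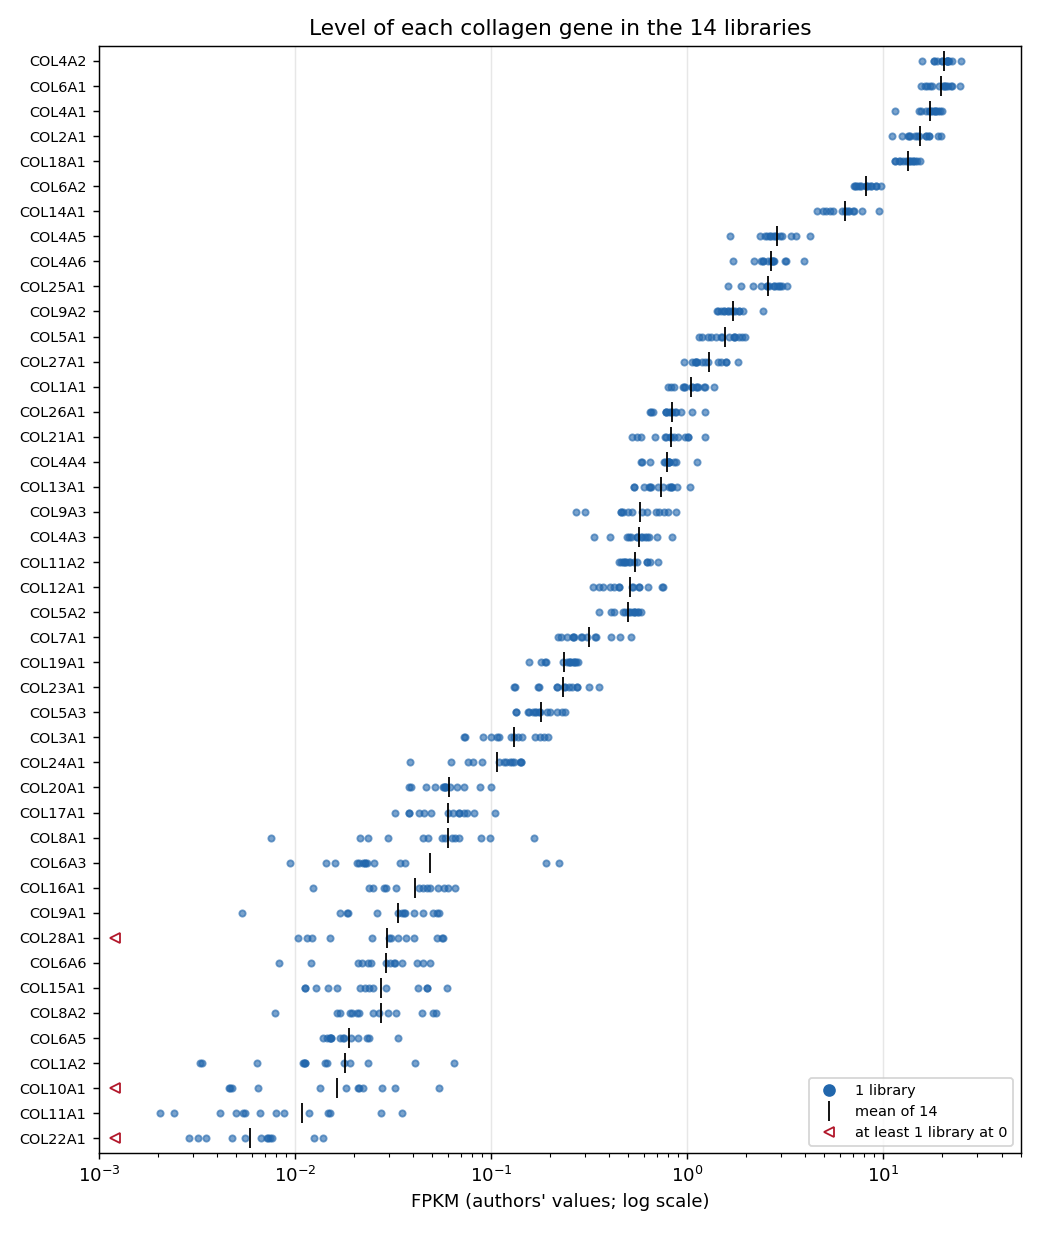
FPKM of each of the 44 collagen genes in each of the 14 libraries (points) with their mean (bar), on a log axis, ordered by the mean. The means run over more than 3 decades, from 20.4 for COL4A2 to 0.00588 for COL22A1, and for COL6A3 2 points lie far to the right of the other 12.

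Of the 6 markers of the 293 line 5 were abundant, while the 10 fibroblast and stromal markers ranged from near 0 to 25.9 CPM. Keratin 8, an epithelial filament encoded by KRT8, ran from 231 to 349 CPM and the neurofilament gene NEFL from 101 to 204 CPM, while NEFM, another neurofilament gene, was at 0.815 to 1.78 CPM. Of the 10 fibroblast and stromal markers, DCN and THY1 never passed 0.0798 CPM, while FBN1 ran from 12.5 to 25.9, TWIST1 from 7.19 to 10 and PRRX1 from 5.36 to 8.06 CPM. The summed level of the 10 was 33.2 and 41 CPM in SA1Q+gRNA, 33.6 and 37.7 CPM in SA1Q, 32.9 to 35.5 CPM over SA2Q+gRNA and SA2Q, 32.6 to 38.4 CPM over SA1+gRNA and SA2+gRNA, and 29.6 and 41.2 CPM in ctrl. Of the 4 cartilage markers, SOX9, an activator of COL2A1, ran from 6.92 to 10.8 CPM, and ACAN, the main cartilage proteoglycan, from 0.227 to 0.92 CPM. The summed level of the 4 endothelial markers was at most 0.843 CPM, and that of the 4 muscle markers 19.1 to 25.2 CPM. That of the 4 blood cell markers, most of it LCP1, was 123 to 142 CPM over SA1Q+gRNA and SA1Q and 161 to 181 CPM over all other groups, ctrl included. PTPRC, the defining blood cell marker, stayed at or below 0.406 CPM. The 6 markers of the 293 line summed to 627 to 676 CPM over SA1Q+gRNA and SA1Q and to 711 to 763 CPM over SA2Q+gRNA and SA2Q. They summed to 671 to 718 CPM in SA1+gRNA, 726 to 831 in SA2+gRNA and 712 to 748 CPM in ctrl. The blood cell sum was thus lower in the SA1Q line than in every other group. The 293 sum was lower there than in the SA2Q line, SA2+gRNA and ctrl but overlapped SA1+gRNA. The part of both sums in the collagen changes given below for the SA1Q line was not tested.

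In SA1Q cells 2 of 41 collagen genes, COL1A1 and COL9A3, fell against ctrl and 0 rose, while 2.8% of all genes tested were called, 1.07% higher and 1.74% lower. COL1A1, the main chain of type I collagen (hg19, chromosome 17, 48261457 to 48279000, minus strand), was at 5.26 and 5.17 CPM in SA1Q and at 7.86 and 8.43 CPM in ctrl. Neither SA1Q library reached either ctrl library, and the group means were 5.22 ± 0.0638 and 8.14 ± 0.402 CPM (SD, n = 2 each). The log2 change was -0.64 (SE 0.13, adjusted p = 0.023, edgeR), a 1.56-fold lower level. In the other groups COL1A1 was at 6.25 and 4.93 CPM in SA1Q+gRNA, 6.89 and 7.11 in SA2Q+gRNA, 7 and 6.55 in SA2Q, 6.01 and 6.18 in SA1+gRNA, and 7.69 and 6.74 CPM in SA2+gRNA. Both ctrl libraries were thus above all 12 others.

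COL9A3, a chain of type IX collagen, which coats cartilage fibrils (hg19, chromosome 20, 61448414 to 61472511, plus strand), was at 1.19 and 0.708 CPM in SA1Q and at 2.13 and 2.25 CPM in ctrl. These came from 65 and 33 counts in SA1Q and 89 and 119 in ctrl. The log2 change was -1.19 (SE 0.26, adjusted p = 0.028, edgeR). COL9A3 shares 45 nucleotides of its span with TCFL5 on the opposite strand, and its counts are therefore uncertain; TCFL5 had a log2 change of 0.05 (adjusted p = 0.8). In the remaining groups COL9A3 was at 0.823 and 1.22 CPM in SA1Q+gRNA, 1.37 and 1.64 in SA2Q+gRNA, 1.99 and 1.82 in SA2Q, 1.31 and 1.22 in SA1+gRNA and 1.56 and 1.92 CPM in SA2+gRNA. The 4 libraries of the SA1Q line were below every library of SA2Q+gRNA, SA2Q, SA2+gRNA and ctrl.

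Leaving out single libraries ended most of these calls, while the log2 change stayed at -0.69 to -0.59 for COL1A1 and at -1.63 to -0.88 for COL9A3. The adjusted p of COL1A1 was 0.0396 without ctrl replicate 1, 0.0507 without ctrl replicate 2, 0.144 without SA1Q replicate 1 and 0.135 without SA1Q replicate 2 (edgeR), and that of COL9A3 was 0.0545, 0.0517, 0.0541 and 0.172. Without ctrl replicate 1 or either SA1Q library, for which the share of all genes is not given, the number of collagen genes called fell. Without ctrl replicate 2 it was 4, all higher in SA1Q (COL25A1, COL4A1, COL4A5 and COL4A6), with 4.88% of all genes called. Without ctrl replicate 1 and SA1Q+gRNA replicate 1 together, 7 were called, all lower in SA1Q (COL1A1, COL4A3, COL4A6, COL6A1, COL6A2, COL9A2 and COL9A3), with 7.32% of all genes called. The direction of COL4A6 thus depended on which ctrl library was kept.

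**Figure D2:**
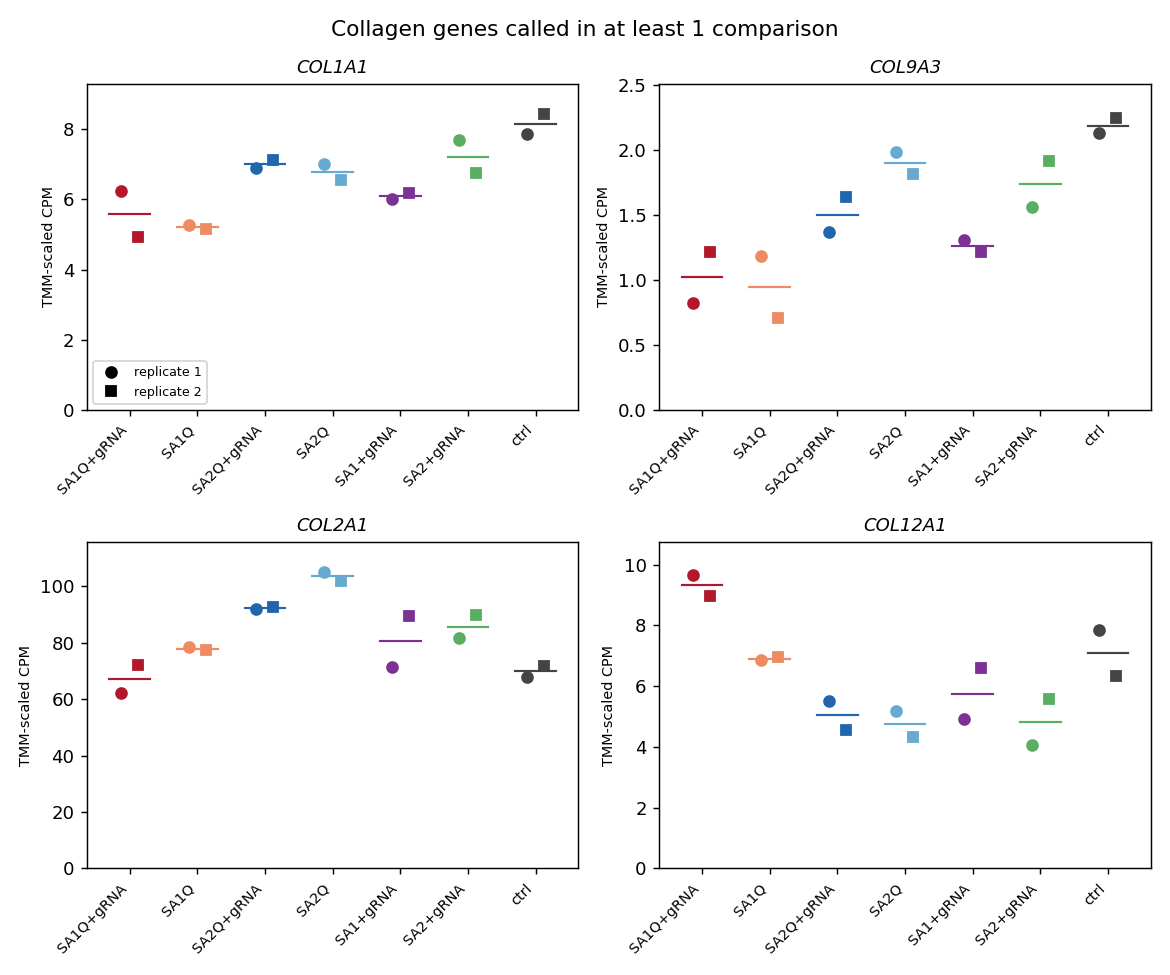
TMM-scaled CPM of the 4 collagen genes called in at least 1 comparison, with a point per library (circle for replicate 1, square for replicate 2) and a line at each group mean; axes start at 0. By group mean, COL1A1 and COL9A3 are lowest in the groups of the SA1Q line and highest in ctrl. COL2A1 is highest in SA2Q at 105 and 102 CPM, and COL12A1 is highest in SA1Q+gRNA at 9.67 and 8.97 CPM.

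The line with SA1Q and the line with SA2Q were compared over both guide conditions, 4 libraries each. COL12A1 was higher and COL2A1 and COL9A3 were lower in the SA1Q line, 3 of 41 collagen genes, with 2.75% of all genes called, 1.03% higher and 1.72% lower. COL12A1, a collagen that associates with fibrils (hg19, chromosome 6, 75794042 to 75915623, minus strand), was at 9.67 and 8.97 CPM in SA1Q+gRNA and 6.85 and 6.95 in SA1Q, against 5.52 and 4.55 CPM in SA2Q+gRNA and 5.18 and 4.31 in SA2Q. The lowest library of the SA1Q line exceeded the highest of the SA2Q line. The log2 change was 0.72 (SE 0.13, adjusted p = 0.0097, edgeR), 1.64-fold. COL12A1 was at 4.92 and 6.59 CPM in SA1+gRNA, 4.06 and 5.57 in SA2+gRNA and 7.86 and 6.32 CPM in ctrl, so the ctrl libraries overlapped the range of the SA1Q line and lay above every library of the SA2Q line.

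COL2A1 (hg19, chromosome 12, 48366748 to 48398285, minus strand) was at 62.3 and 72 CPM in SA1Q+gRNA and 78.4 and 77.4 in SA1Q, against 92 and 92.7 CPM in SA2Q+gRNA and 105 and 102 in SA2Q. The ranges of the lines did not overlap, and the log2 change was -0.43 (SE 0.07, adjusted p = 0.0069, edgeR), a 1.35-fold lower level in the SA1Q line. It was at 71.3 and 89.6 CPM in SA1+gRNA, 81.5 and 89.8 in SA2+gRNA, and 67.9 and 71.7 CPM in ctrl. Against ctrl the SA2Q level had a log2 change of 0.56 that missed the threshold (adjusted p = 0.064, edgeR). COL9A3, whose values are given above, had a log2 change of -0.76 between the lines (SE 0.18, adjusted p = 0.041, edgeR), and TCFL5 one of 0.09 (adjusted p = 0.54).

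COL2A1 was called between the lines in all 8 fits that left out 1 library of either line. Over these fits the log2 change was -0.49 to -0.38 for COL2A1, 0.65 to 0.79 for COL12A1 and -0.98 to -0.6 for COL9A3. The call of COL12A1 was lost without SA2Q replicate 2 (adjusted p = 0.0813) and without SA2Q+gRNA replicate 2 (adjusted p = 0.0731). That of COL9A3 was lost in 6 of the 8, with the highest adjusted p, 0.184, without SA2Q+gRNA replicate 2; the others were the fits without SA1Q replicate 2 (0.154), SA2Q replicate 1 (0.138), SA2Q replicate 2 (0.133), SA2Q+gRNA replicate 1 (0.0892) and SA1Q+gRNA replicate 1 (0.0664). Without SA2Q replicate 2 or SA2Q+gRNA replicate 2, for which the share of all genes is not given, the number called fell. It was 11, 5 higher and 6 lower, without SA1Q+gRNA replicate 1 and ctrl replicate 1, with 11.8% of all genes called. Just short of the threshold in the full comparison lay COL24A1 (log2 change 0.92, adjusted p = 0.051), COL6A1 (-0.3, 0.053) and COL1A1 (-0.36, 0.061).

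**Figure D3:**
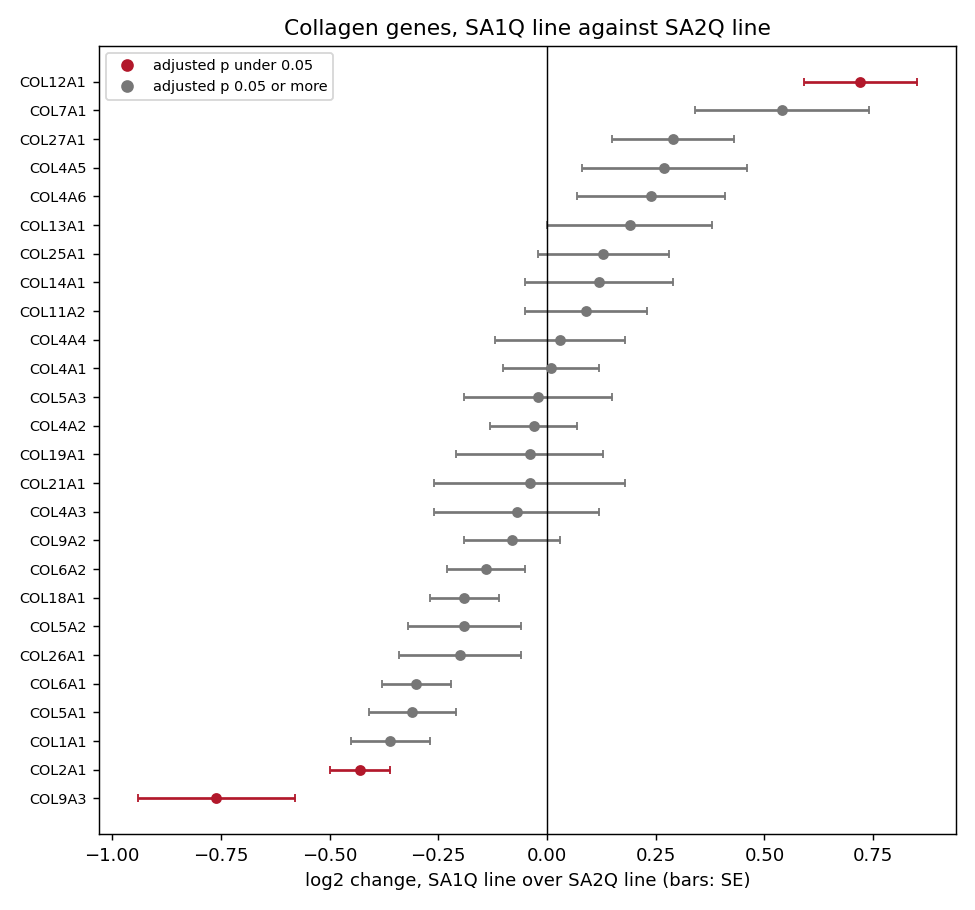
Log2 change between the SA1Q line and the SA2Q line, with SE bars, for the 26 tested collagen genes with a mean of at least 1 CPM; red points have an adjusted p under 0.05. Of the 26, 11 lie above 0 and 15 below, from -0.76 for COL9A3 to 0.72 for COL12A1.

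In the other 9 comparisons edgeR called 0 of 41 collagen genes. Against ctrl the shares of all genes called were 1.04% in SA1Q+gRNA, 0.0853% in SA2Q, 0.067% in SA2Q+gRNA, 0.0426% in SA1+gRNA and 0.104% in SA2+gRNA. Collagen genes with an unadjusted p under 0.05 numbered 6 in SA1Q+gRNA, 4 in SA2Q, 7 in SA2Q+gRNA, 7 in SA1+gRNA and 6 in SA2+gRNA, beside 13.9%, 8.86%, 10.1%, 10.7% and 10.2% of all genes. DESeq2 called 2, 1, 0, 0 and 0 collagen genes, beside 2.91%, 0.554%, 0.615%, 0.615% and 0.804% of all genes. The 2 were COL1A1 (log2 change -0.55, adjusted p = 0.062 by edgeR) and COL9A3 (-1.07, 0.062), both lower in SA1Q+gRNA, and the 1 was COL2A1. These comparisons share the ctrl libraries with each other and with SA1Q against ctrl.

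Single libraries moved these counts. Without ctrl replicate 2, edgeR called COL4A1, COL4A5 and COL4A6, all higher in SA1Q+gRNA, beside 1.07% of all genes. It called COL4A1, higher in SA2Q, beside 0.166%, and COL6A1, higher in SA2+gRNA, beside 0.172%. In SA1Q+gRNA against ctrl the calls also moved without each of the other libraries. The shares of all genes in those fits are not given, so nothing about collagen genes is read from them. Without ctrl replicate 1 and SA1Q+gRNA replicate 1 together, the calls against ctrl numbered 1 in SA1Q+gRNA beside 1.54% of all genes, 9 in SA2Q+gRNA beside 5.11%, 5 in SA2Q beside 3.42%, 5 in SA1+gRNA beside 2.3% and 3 in SA2+gRNA beside 2.84%. All of these were lower than in ctrl except COL2A1 in SA2Q. COL4A5, COL4A6 and COL7A1 were among those of SA2Q+gRNA, SA2Q, SA1+gRNA and SA2+gRNA. Ctrl was then replicate 2 alone, the highest of 14 libraries for COL4A5 (28.7 CPM), COL4A6 (27.4 CPM) and COL7A1 (4.94 CPM). Their recurrence over groups thus rests on that library.

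The guide RNA was compared within each Q line. With guide against without, 0 of 41 collagen genes and 0% of all genes were called in either line by edgeR, and DESeq2 also called 0 collagen genes and 0 of all genes in both. At an unadjusted p under 0.05 there were 3 collagen genes and 2005 of all genes in SA1Q+gRNA against SA1Q, and 1 collagen gene and 291 of all genes in SA2Q+gRNA against SA2Q. COL12A1, for example, was at 9.67 and 8.97 CPM in SA1Q+gRNA against 6.85 and 6.95 CPM in SA1Q. A test of whether the change with the guide differed between the lines called 0 of 41 and 0 of all 16418 genes. The lowest adjusted p of the 41 was 0.713 (edgeR).

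Each Q enzyme was also compared with its wild-type enzyme, both with guide. SA1Q+gRNA against SA1+gRNA gave 0 called collagen genes beside 0.962% of all genes, 4 at an unadjusted p under 0.05 beside 17.4%, and 1 by DESeq2 beside 3.57%, COL12A1 (log2 change 0.68, adjusted p = 0.081 by edgeR). The count of 0 did not hold without SA1Q+gRNA replicate 2, a fit in which that group rests on replicate 1 alone. That library lay at -43.9 on the first principal component. Of the 14 libraries it was highest for COL12A1 (9.67 CPM) and COL11A2 (5.02 CPM) and lowest for COL2A1 (62.3 CPM). SA2Q+gRNA against SA2+gRNA gave 0 beside 0.0122% of all genes, 3 at an unadjusted p under 0.05 beside 7.86%, and 0 by DESeq2 beside 0.347%. Without ctrl replicate 1 and SA1Q+gRNA replicate 1, edgeR called COL24A1, a fibrillar collagen of bone, lower in SA2Q+gRNA, beside 0.716% of all genes. Whether the Q change differed between the enzymes was tested by the interaction, which called 0 of 41 and 0 of all 16418 genes. The lowest adjusted p of the 41 was 0.324 (edgeR). At an unadjusted p under 0.05 there were 4 of the 41, and the share of all genes is not given.

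Over the 41 genes the median log2 change was -0.08 in SA1Q against ctrl, -0.08 in SA2Q, -0.01 in SA1Q+gRNA, -0.13 in SA2Q+gRNA, -0.04 in SA1+gRNA and 0.08 in SA2+gRNA. It was 0.05 in SA1Q+gRNA against SA1Q, -0.14 in SA2Q+gRNA against SA2Q, 0.04 in SA1Q+gRNA against SA1+gRNA, -0.16 in SA2Q+gRNA against SA2+gRNA and -0.04 between the lines. Over all 16418 genes these medians lay within 0.01 of 0. The summed level of the 44 genes was 656 and 709 CPM in SA1Q+gRNA, 709 and 680 in SA1Q, 710 and 691 in SA2Q+gRNA, 796 and 739 in SA2Q, 654 and 729 in SA1+gRNA, 751 and 758 in SA2+gRNA, and 563 and 815 CPM in ctrl. The ctrl group held both the lowest and the highest of the 14 sums.

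The type IV genes showed that spread within ctrl most plainly. COL4A1 was at 110 and 136 CPM in SA1Q+gRNA, 121 and 129 in SA1Q, 119 and 114 in SA2Q+gRNA, 134 and 127 in SA2Q, 107 and 119 in SA1+gRNA, 120 and 128 in SA2+gRNA, and 80.8 and 130 CPM in ctrl. Its partner COL4A2 was at 125 and 138 CPM in SA1Q+gRNA, 139 and 131 in SA1Q, 133 and 126 in SA2Q+gRNA, 147 and 139 in SA2Q, 119 and 142 in SA1+gRNA, 140 and 145 in SA2+gRNA, and 107 and 163 CPM in ctrl. For both genes ctrl replicate 1 was the lowest of 14. The other 13 libraries lay within 107 to 136 CPM for COL4A1 and within 119 to 163 CPM for COL4A2.

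COL4A3 and COL4A4 encode chains of the mature basement membrane of the kidney glomerulus, cochlea and eye. COL4A3 was at 3.63 and 4.66 CPM in SA1Q+gRNA, 4.95 and 4.21 in SA1Q, 4.42 and 4.36 in SA2Q+gRNA, 4.97 and 4.72 in SA2Q, 5.97 and 5.29 in SA1+gRNA, 5.48 and 5.39 in SA2+gRNA, and 2.91 and 7.06 CPM in ctrl. COL4A4 was at 7.38 and 8.54 CPM in SA1Q+gRNA, 8.68 and 8.73 in SA1Q, 8.73 and 6.47 in SA2Q+gRNA, 9.34 and 8.37 in SA2Q, 9.58 and 8.95 in SA1+gRNA, 8.84 and 8.44 in SA2+gRNA, and 6.45 and 12.1 CPM in ctrl. Ctrl replicate 1 was the lowest and ctrl replicate 2 the highest library for both.

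The third pair, COL4A5 and COL4A6, lies on the X chromosome, and variants of COL4A5 are known from inherited kidney disease. COL4A5 was at 19.6 and 23 CPM in SA1Q+gRNA, 24.1 and 20.4 in SA1Q, 19.3 and 16.3 in SA2Q+gRNA, 19.4 and 17.1 in SA2Q, 18.2 and 21.1 in SA1+gRNA, 17.6 and 18.4 in SA2+gRNA, and 11.6 and 28.7 CPM in ctrl. COL4A6 was at 17.6 and 22 CPM in SA1Q+gRNA, 22.3 and 19.7 in SA1Q, 17.2 and 15.7 in SA2Q+gRNA, 19 and 17.2 in SA2Q, 19.3 and 18.6 in SA1+gRNA, 19.5 and 19.2 in SA2+gRNA, and 12.3 and 27.4 CPM in ctrl. The ctrl pair again spanned all other libraries.

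Over the 14 libraries the log2 levels of head-to-head partners correlated, given as a description since the libraries share lines and depth. Pearson's r was 0.85 and Spearman's rho 0.71 for COL4A1 and COL4A2, 0.85 and 0.76 for COL4A3 and COL4A4, and 0.94 and 0.76 for COL4A5 and COL4A6. Without the 2 libraries farthest from the median of the first gene, r was 0.62, 0.63 and 0.78 over 12 libraries. The ratio of CPM ranged from 1.01 to 1.32 for COL4A2 over COL4A1, from 1.48 to 2.21 for COL4A4 over COL4A3 and from 0.878 to 1.11 for COL4A6 over COL4A5.

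Ctrl replicate 1 was lowest and ctrl replicate 2 highest of the 14 libraries for 6 of 42 tested collagen genes, COL4A2, COL4A3, COL4A4, COL4A5, COL4A6 and COL14A1, a pattern picked after the values were seen. Over all genes tested it occurred in 152, or 0.926%. COL14A1 was at 34.9 and 47.8 CPM in SA1Q+gRNA, 52.5 and 37.9 in SA1Q, 42.2 and 36.8 in SA2Q+gRNA, 45.7 and 34.7 in SA2Q, 44.9 and 48.7 in SA1+gRNA, 44.2 and 44.2 in SA2+gRNA, and 31.9 and 63.7 CPM in ctrl. In the comparisons with ctrl the log2 changes of the 6 type IV genes lay between -0.3 and 0.31, with SE of 0.14 to 0.27, and none was called.

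**Figure D4:**
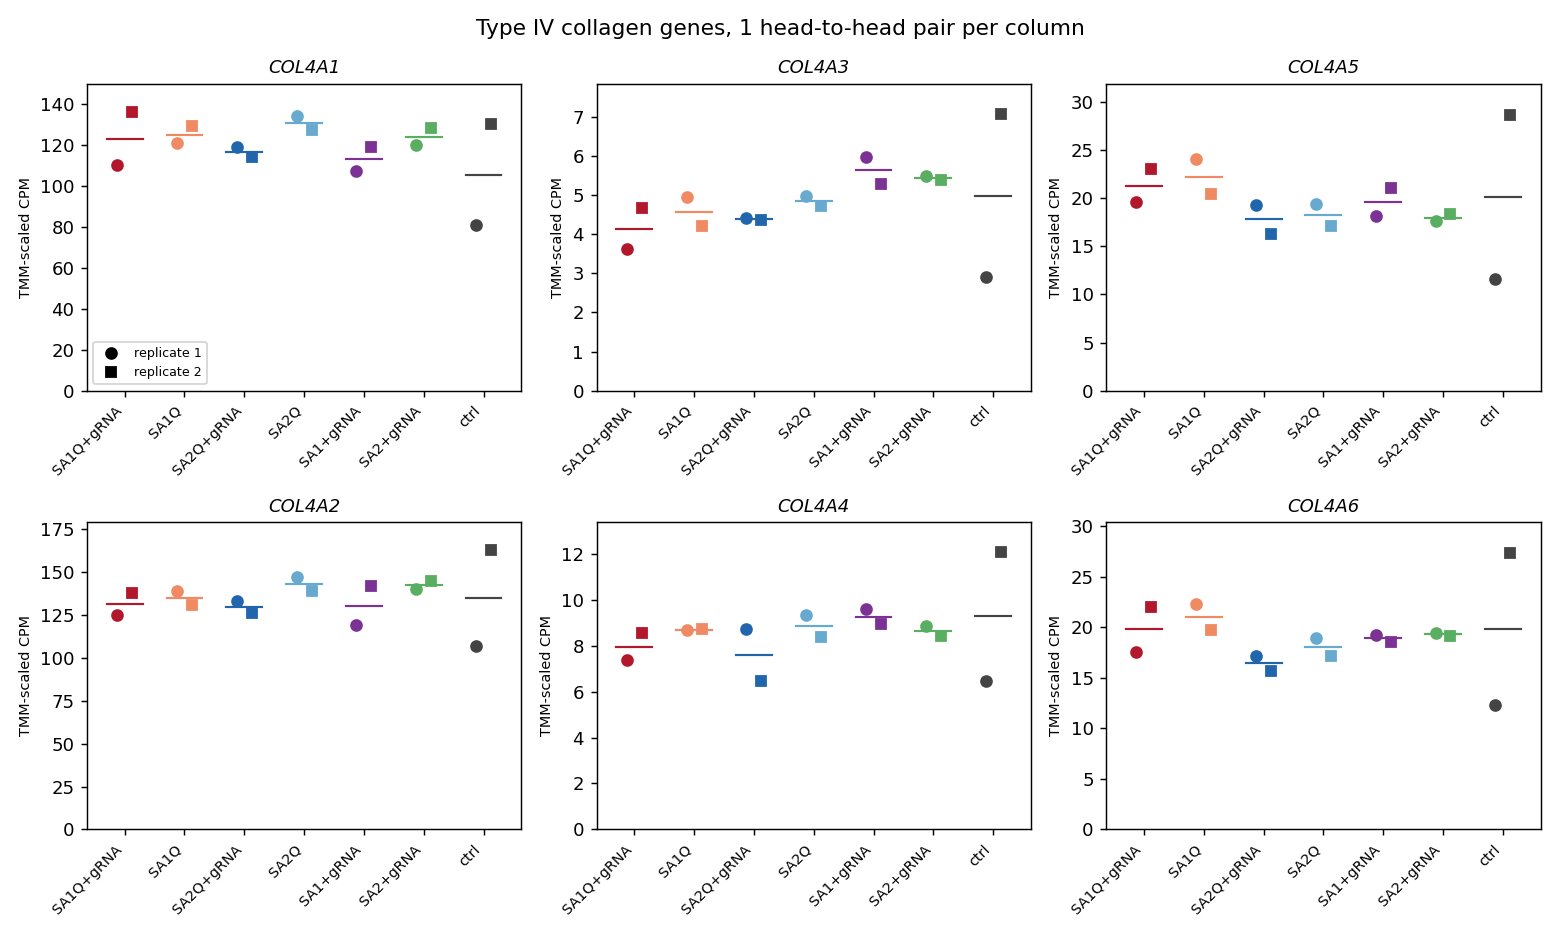
TMM-scaled CPM of the 6 type IV collagen genes, 1 head-to-head pair per column, with a point per library and a line at each group mean; axes start at 0. In the ctrl group on the right the circle of replicate 1 is the lowest point of every panel, and the square of replicate 2 is the highest in 5 of the 6, all but COL4A1.

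Type VI collagen is a trimer of the chains encoded by COL6A1, COL6A2 and another chain, usually COL6A3. COL6A3 (hg19, chromosome 2, 238232655 to 238322850, minus strand) was at 2.24 and 0.279 CPM in SA1Q+gRNA, 0.256 and 0.236 in SA1Q, 0.255 and 0.406 in SA2Q+gRNA, 0.105 and 0.255 in SA2Q, 0.382 and 0.182 in SA1+gRNA, 0.248 and 0.162 in SA2+gRNA, and 2.53 and 0.227 CPM in ctrl. The high libraries held 87 counts (SA1Q+gRNA replicate 1) and 106 counts (ctrl replicate 1), and the other 12 held 5 to 26. The lower of the pair exceeded the highest of the other 12 by 5.51 times, a ratio given as a description because it led to the choice of gene and libraries.

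All 5 COL6A3 transcripts were highest in the same libraries. A fragment can be counted for several of these transcripts, so they are not independent of each other. They include a pair of short ones that lack the 3′ part of the gene. The longer of these had 0.814 FPM, the authors' count scaled by the library total, in SA1Q+gRNA replicate 1 and 0.7528 FPM in ctrl replicate 1, against at most 0.1125 FPM elsewhere. The other chains of the trimer had no such pattern. COL6A1 was at 77.9 and 78.2 CPM in SA1Q+gRNA, 75.3 and 72.7 in SA1Q, 91.5 and 90.3 in SA2Q+gRNA, 99.8 and 93.2 in SA2Q, 86.4 and 93.3 in SA1+gRNA, 110 and 100 in SA2+gRNA, and 70.4 and 94.2 CPM in ctrl. COL6A2 was at 33 and 26.1 CPM in SA1Q+gRNA, 27.4 and 25.8 in SA1Q, 29.9 and 30.5 in SA2Q+gRNA, 33.3 and 29.5 in SA2Q, 26.9 and 27.9 in SA1+gRNA, 33.3 and 31.7 in SA2+gRNA, and 26.7 and 34.7 CPM in ctrl. Ctrl replicate 1 was the lowest of 14 for COL6A1.

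The chains that can take its place were scarce. COL6A5 was at 0.18 and 0.131 CPM in SA1Q+gRNA, 0.183 and 0.322 in SA1Q, 0.223 and 0.141 in SA2Q+gRNA, 0.146 and 0.17 in SA2Q, 0.146 and 0.149 in SA1+gRNA, 0.203 and 0.146 in SA2+gRNA, and 0.167 and 0.227 CPM in ctrl. COL6A6 was at 0.0772 and 0.394 CPM in SA1Q+gRNA, 0.256 and 0.107 in SA1Q, 0.287 and 0.437 in SA2Q+gRNA, 0.272 and 0.373 in SA2Q, 0.218 and 0.198 in SA1+gRNA, 0.316 and 0.292 in SA2+gRNA, and 0.191 and 0.208 CPM in ctrl. Neither gene passed 0.437 CPM in any library, and with 3 to 28 counts per library their order between libraries is not firm. Per length, COL6A1 averaged 19.6 FPKM and COL6A2 8.15 FPKM, against 0.0486 FPKM for COL6A3, 0.0187 for COL6A5 and 0.0289 for COL6A6.

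**Figure D5:**
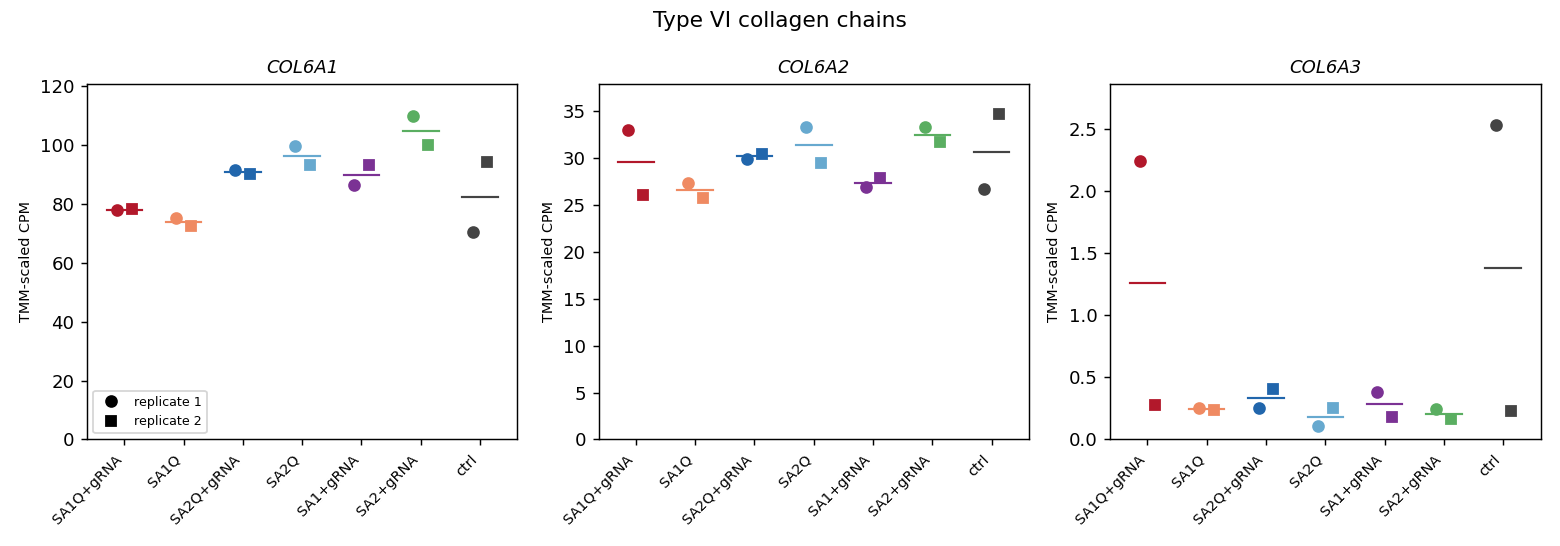
TMM-scaled CPM of COL6A1, COL6A2 and COL6A3, with a point per library and a line at each group mean; axes start at 0 and differ between panels. COL6A3 is at 2.24 CPM in SA1Q+gRNA replicate 1 and 2.53 CPM in ctrl replicate 1 and at most 0.406 CPM elsewhere, whereas these libraries do not stand above the rest for COL6A1 or COL6A2.

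Other collagen genes differed in those libraries in both directions. Apart from COL6A3, both libraries lay above the other 12 for 2 of 41 tested collagen genes, COL1A2 and COL11A1, beside 10.1% of all genes. Both genes passed the filter on low counts only through these libraries, so they were tested because they were high there. The 10.1% can hold such genes too, and nothing is read from either figure. COL1A2 was at 0.386 CPM in SA1Q+gRNA replicate 1 and 0.239 in ctrl replicate 1 and at most 0.135 elsewhere, and COL11A1, a minor cartilage fibril chain, was at 0.283 and 0.215 CPM and at most 0.116 elsewhere. These levels came from 9 to 15 counts in the high libraries and 1 to 14 elsewhere, too few for a firm order. Both lay below the other 12 for 6 genes, COL2A1, COL4A3, COL5A2, COL8A1, COL21A1 and COL25A1, beside 8.05% of all genes. For COL8A1 the order rests on 1 and 3 counts, against 4 to 24 elsewhere, and is not firm. For COL25A1 the values were 11.9 CPM in SA1Q+gRNA replicate 1 and 9.98 in ctrl replicate 1, against 13.1 to 19.2 CPM. These libraries were the shallowest, at 43.0 M (SA1Q+gRNA replicate 1) and 45.2 M fragments (ctrl replicate 1), though SA2+gRNA replicate 1 was close at 47.0 M. Over all genes the log2 difference between the shallowest libraries and the other 12 correlated with transcript length (Spearman's rho -0.35 across genes, which are not independent replicates). Over the 26 collagen genes with at least 1 CPM rho was -0.11, with 19 of the 26 below 0 and a median of -0.24, against -0.01 over all genes. The median transcript length was 5656 nucleotides for the collagen genes and 2921 for all genes tested. COL6A3, at 10581 nucleotides, was high where long transcripts were on the whole low, and the part of length or depth in its level was not tested.

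Among the genes whose log2(CPM + 0.5) followed COL6A3 most closely over the 14 libraries were SLCO1B1, a transporter of liver cells (Pearson's r = 0.982), and CACNA1A, a neuronal calcium channel (r = 0.98). Both were high in the same libraries. SLCO1B1 was at 1.21 CPM in SA1Q+gRNA replicate 1 and 1.29 CPM in ctrl replicate 1 and at most 0.109 CPM elsewhere. CACNA1A was at 1.85 and 1.93 CPM there and at most 0.219 CPM elsewhere. Over the whole list of 10 fibroblast and stromal markers, the summed level was 33.2 CPM in SA1Q+gRNA replicate 1 and 29.6 CPM in ctrl replicate 1, the lowest of 14. DCN was at 0 and 0.0239 CPM there, THY1 at 0.0257 and 0, FAP at 0 and 0.0478 and LUM at 0.206 and 0.143 CPM. POSTN was at 0.0772 and 0.0478 CPM, PDGFRA at 1.29 and 1.03 and PRRX1 at 5.53 and 6.57 CPM. FBN1 was at 15.5 and 12.5 CPM in a range of 12.5 to 25.9 CPM. TWIST1 was at 10 and 8.67 CPM in a range of 7.19 to 10 CPM. PDGFRB, a receptor of stromal cells picked after the values were seen, was highest of 14 in these libraries at 0.566 and 0.549 CPM. So was CD74, a chaperone of antigen-presenting cells picked in the same way from the 4 blood cell markers, at 0.592 and 0.908 CPM. LCP1 was at 110 and 140 CPM there in a range of 110 to 163 CPM. CD68 was at 12 and 19.7 CPM in a range of 10.7 to 21.8 CPM. PTPRC, the defining marker of blood cells, was at 0.232 and 0.406 CPM in a range of 0.149 to 0.406 CPM. The part of other cell types in the level of COL6A3 was not tested.

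Among the remaining genes at 5 CPM or more, COL18A1 was at 81 and 64.3 CPM in SA1Q+gRNA, 68.4 and 72.1 in SA1Q, 74.6 and 80.7 in SA2Q+gRNA, 87.6 and 82.4 in SA2Q, 68.1 and 77.4 in SA1+gRNA, 78 and 81.2 in SA2+gRNA, and 66.7 and 83.6 CPM in ctrl. Its largest change against ctrl was 0.18 on the log2 scale (SA2Q, adjusted p = 0.72, edgeR), and the groups overlapped. COL25A1 was at 11.9 and 19.2 CPM in SA1Q+gRNA, 17.3 and 18 in SA1Q, 14.3 and 13.1 in SA2Q+gRNA, 18.2 and 15.4 in SA2Q, 15.7 and 15.6 in SA1+gRNA, 16.8 and 16.8 in SA2+gRNA, and 9.98 and 17 CPM in ctrl. Ctrl replicate 1 and SA1Q+gRNA replicate 1 were its lowest libraries.

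COL5A1, a chain that limits fibril width, was at 10.8 and 12.3 CPM in SA1Q+gRNA, 15.1 and 10.6 in SA1Q, 13.3 and 14.6 in SA2Q+gRNA, 17.5 and 15.5 in SA2Q, 11.8 and 11.5 in SA1+gRNA, 16.9 and 15.7 in SA2+gRNA, and 13.6 and 16.2 CPM in ctrl. COL27A1, a fibrillar collagen of cartilage, was at 9.18 and 9.15 CPM in SA1Q+gRNA, 6.87 and 8.47 in SA1Q, 6.22 and 6.48 in SA2Q+gRNA, 7.25 and 7.48 in SA2Q, 6.57 and 5.76 in SA1+gRNA, 9.38 and 6.66 in SA2+gRNA, and 6.76 and 10.5 CPM in ctrl. COL9A2, a partner chain of COL9A3, was at 4.45 and 4.78 CPM in SA1Q+gRNA, 5.11 and 4.46 in SA1Q, 4.87 and 4.65 in SA2Q+gRNA, 5.46 and 4.99 in SA2Q, 4.31 and 4.69 in SA1+gRNA, 5.48 and 5.83 in SA2+gRNA, and 5.23 and 7.18 CPM in ctrl. Each of the 3 had a ctrl library inside the range of the other groups.

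The other 23 collagen genes stayed at or below 5.36 CPM in every library. The highest single values among them were 5.36 CPM of COL21A1 and 4.94 CPM of COL7A1, the anchoring fibril of skin, both in ctrl replicate 2, and 5.02 CPM of COL11A2 in SA1Q+gRNA replicate 1. Of these genes COL8A1, a short-chain collagen of vessel walls, had the smallest p against ctrl, at 0.541 and 0.325 CPM in SA2+gRNA and 0.0716 and 0.0757 CPM in ctrl. That was a log2 change of 2.49 (SE 0.66, adjusted p = 0.19, edgeR) from 24 and 20 counts in SA2+gRNA and 3 and 4 counts in ctrl, and it was not called. COL4A2, COL4A3, COL5A1, COL10A1 and COL18A1 overlap genes on the opposite strand. Whether strand was used in counting is unknown here, so their counts are uncertain. COL10A1 and COL22A1, the pair with too few counts to test, had at most 8 and 6 counts in a library.

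The genes that make, carry, bind and break down collagen were counted from 7 lists with 136 genes, 125 of them tested. In SA1Q against ctrl 5 of 125 were called, all lower, or 4% beside 2.8% of all genes. FKBP10, a prolyl isomerase of collagen folding, was at 138 and 135 CPM in SA1Q and at 170 and 178 CPM in ctrl (log2 change -0.35, adjusted p = 0.027, edgeR). LOXL1, which cross-links elastin and collagen, had a log2 change of -0.55 (adjusted p = 0.025), and it overlaps an antisense RNA, so its counts are uncertain. The integrin chain ITGB4 fell by 0.97 on the log2 scale (adjusted p = 0.033, edgeR). It belongs to a laminin receptor, so the receptor list went beyond collagen receptors. The membrane-bound metalloproteinase MMP15 fell by 0.59 (adjusted p = 0.031, edgeR) and the basement membrane proteoglycan AGRN by 0.56 (0.019). AGRN was at 99.4 and 106 CPM in SA1Q and at 134 and 169 CPM in ctrl. Fits without 1 library leave a lone library in a group. In them the count moved whichever library was left out, and the calls were lost without either SA1Q library. It was 14 without ctrl replicate 1 and SA1Q+gRNA replicate 1, these 5 included, beside 7.32% of all genes. DESeq2 called 9, beside 6.48% of all genes.

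By list, 1 of 22 hydroxylation and folding genes, 1 of 17 processing and cross-linking genes, 1 of 16 receptors, 1 of 13 breakdown genes and 1 of 21 basement membrane partners were called lower, and 0 of 15 export genes and 0 of 21 regulators were called. The median log2 changes of the 7 lists in that comparison lay between -0.07 and 0.06. Between the lines 7 of 125 were called, or 5.6% beside 2.75% of all genes. Higher in the SA1Q line were CUL3, a ubiquitin ligase scaffold that acts in collagen export (log2 change 0.27), and TIMP3, an inhibitor of metalloproteinases that overlaps SYN3 (0.24). Among those lower were the chaperone HSPA5 (-0.29), PCOLCE, which speeds procollagen cleavage and overlaps an antisense RNA (-0.45), the collagen receptor DDR1 (-0.31) and AGRN (-0.36). The adjusted p of these named genes ran from 0.015 to 0.044 (edgeR). In fits that leave a lone library in a group, the calls were lost without SA1Q replicate 1, either SA2Q library or SA2Q+gRNA replicate 2. The count also fell without SA1Q replicate 2 and without SA2Q+gRNA replicate 1. Without ctrl replicate 1 and SA1Q+gRNA replicate 1 it was 24, these 7 included, beside 11.8% of all genes. DESeq2 called 15, beside 4.88% of all genes.

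DDR1 was at 50.1 and 48.5 CPM in SA1Q+gRNA and 46.1 and 51.8 in SA1Q, against 55.7 and 60.9 CPM in SA2Q+gRNA and 62.9 and 63.8 in SA2Q, so the lines did not overlap. In the other 9 comparisons edgeR called 0 of 125, while 3 to 21 had an unadjusted p under 0.05, beside 1.77% to 17.4% of all genes, and DESeq2 called 0 to 5, beside 0% to 3.57%. Without ctrl replicate 1 and SA1Q+gRNA replicate 1, ctrl was a lone library, and edgeR called some of the 125 in each of these comparisons with ctrl. It called 2 in SA2Q+gRNA against SA2+gRNA, beside 0.716% of all genes. Without SA1Q+gRNA replicate 2, that group was a lone library, and edgeR called some against SA1Q, against SA1+gRNA and against ctrl. Some were also called in SA1Q+gRNA against ctrl without ctrl replicate 1. The shares of all genes called in these fits with a single library left out are not given, so no pathway result is read from them. Among the regulators SOX5, a partner of SOX9 in cartilage, had the smallest p, with 2.24 and 2.96 CPM in SA1Q+gRNA and 3.58 and 4.85 CPM in ctrl (log2 change -0.69, adjusted p = 0.088, edgeR).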

How the data were processed

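Fragments were counted by the authors per RefSeq transcript (hg19) in 14 libraries, and the deposited count column is used as it stands. The authors' FPM is a signal, the count scaled by the library total, and the authors' FPKM divides it by transcript length, per the file headers. The submitters' processing notes name Trim Galore and STAR 2.4.2a, and the counter, its use of strand and its treatment of transcripts that share exons are not stated there, so a fragment can be counted for several transcripts of a gene. Of 46830 rows per file, with 45595 accessions, a RefSeq table (GRCh38.p14, used for names and for the printed DNA) named 44377 accessions, and GENCODE names were used for 569 more. The 887 unnamed rows, with 0.808% of the counts, and 2309 named rows under 200 nucleotides were left out. Each gene was represented by the transcript with the highest mean FPM, giving 22410 genes.

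Counts were fitted with edgeR 4.0.16 (R 4.3.3, TMM scaling, filterByExpr with a minimum count of 10) as 7 group means over all 14 libraries, which share an estimate of the spread (7 residual degrees of freedom, common biological coefficient of variation 8.7%). P-values were adjusted over 16418 genes in each of 11 comparisons. The script was tested on simulated counts. Groups were taken from the labels, and whether the 2 replicates of a group came from separate cultures is known only from the design text's 2 independent experiments. Library totals of 43.0 to 130.1 M fragments limit what low genes can show. The order of libraries is not firm for a gene with 10 counts or fewer in some of them.

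Values are given for members with a mean of at least 5 CPM, members called, all COL6A genes and the type IV pairs, and other members by range and count. From each pathway list up to 3 called genes with the smallest p are named, or 1 where none was called, and further names were chosen after the values were seen. The 5 genes with the highest Pearson r with COL6A3 were sought, and some genes that these rules would name are not reported here. Members, lists and rules were chosen with earlier results of these data known. Alternatives were DESeq2 1.42.0, RLE scaling, no filter on low counts, a replicate block, the longest transcript, a transcript length offset, halved counts of SA1+gRNA replicate 2, leaving out each library in turn, and leaving out ctrl replicate 1 and SA1Q+gRNA replicate 1 together. Tables were handled with Python 3.11.15, pandas 2.3.3 and scipy 1.17.1.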

Additional observations from a re-analysis of the deposited data

How the results depend on the processing

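Counts of called collagen genes were 2 in SA1Q against ctrl, 3 between the lines and 0 in the other 9 comparisons. Without ctrl replicate 1 and SA1Q+gRNA replicate 1 they were 7 in SA1Q, 5 in SA2Q, 1 in SA1Q+gRNA, 9 in SA2Q+gRNA, 5 in SA1+gRNA and 3 in SA2+gRNA, each against ctrl, 1 in SA2Q+gRNA against SA2+gRNA and 11 between the lines. The cause was not tested. DESeq2 called 1 in SA2Q against ctrl, 2 in SA1Q+gRNA against ctrl, 1 in SA1Q+gRNA against SA1+gRNA and 6 between the lines. In the same order it called 0.554%, 2.91%, 3.57% and 4.88% of all genes. Without a filter on low counts these 4 collagen counts were 1, 1, 1 and 5. With the length offset they were 1 in SA2Q, 1 in SA1Q+gRNA and 5 between the lines. For the fits without a filter or with the offset the shares of all genes are not given, so nothing about collagen genes is read from them. RLE scaling, the longest transcript and halved counts of SA1+gRNA replicate 2 kept every count within 1.5 times.

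Leaving out 1 library, a lone sample was assumed to vary like the other groups. The shares of all genes called are not given for most of these fits, so nothing about collagen genes is read from the counts. The counts then ranged from 0 to 4 in SA1Q, 0 to 1 in SA2Q, 1 to 3 in SA1Q+gRNA and 0 to 1 in SA2+gRNA against ctrl, from 0 to 3 in SA1Q+gRNA against SA1+gRNA and from 1 to 4 between the lines. In the remaining 5 comparisons they stayed at 0, and both guide comparisons stayed at 0 under every alternative run. Of 72 refits of single called genes, 56 kept the call, 16 lost it and 0 changed direction. The ratio of COL6A3 ranged from 5.3 to 5.55 over 4 alternatives.

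The labels do not say whether replicate numbers pair the samples. Over 21 pairs of groups, deviations of same-numbered libraries correlated with r of -0.14 to 0.44 (median -0.02), and 2 exceeded 0.1. The highest, 0.44, was between ctrl and SA1Q+gRNA, the groups whose replicate 1 lay apart on the first principal component. Such correlations cannot exclude a pairing. With the replicate number as a block, the log2 change of COL1A1 in SA1Q against ctrl was -0.65 (adjusted p = 0.0327, edgeR) and that of COL9A3 -1.19 (0.0428). Between the lines, with the block, COL12A1 had 0.72 (0.0174), COL2A1 -0.43 (0.00788) and COL9A3 -0.76 (0.0587), so 2 were called there.

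Counts of pathway genes were 5 in SA1Q against ctrl and 7 between the lines, and without ctrl replicate 1 and SA1Q+gRNA replicate 1 they were 14 and 24. Genes under 1 CPM rest on few counts, and differences in them may not be detectable at this depth.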
